A study of Rattus norvegicus with 192 samples.

Results

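The 10 core genes of the circadian clock, Arntl, Clock, Per1, Per2, Per3, Cry1, Cry2, Nr1d1, Nr1d2 and Dbp, were followed through 4 tissues of rats exposed to an antibiotic, to a fluorinated surfactant or to both. They were taken by symbol from 2 count tables that list 17483 genes, and all 10 symbols were present. The animals were adult male wild-type Crl:CD(SD) rats dosed by oral gavage once a day over 7 days, from postnatal day 56 to postnatal day 62. The combination group received vancomycin at 8 mg and PFOS at 3 mg per kg of body weight per day, the PFOS group received the PFOS dose alone, the vancomycin group received the vancomycin dose alone, and the vehicle group received corn oil. Vancomycin is an antibiotic that is poorly absorbed from the gut, and PFOS, perfluorooctane sulfonate, is a persistent surfactant that accumulates in liver. All groups were housed under a reversed light/dark cycle of 12 hours, and the clock time of tissue collection is not given in the sources used here. The hypothalamus, pituitary, thyroid and liver were each profiled by 3′ bulk RNA barcoding sequencing, which counts reads from the 3′ ends of polyadenylated RNA. There were 12 libraries per tissue and treatment, 192 in all, and 178 of them, those with at least 100000 counts, were used. A library carried a number that 1 library of each other tissue also carried, but the labels do not say that libraries of the same number came from the same animal.

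In the mammalian clock, ARNTL (also called BMAL1) and CLOCK pair to activate genes that carry E-boxes, among them the Per and Cry genes, whose products return to block the pair. ARNTL and CLOCK also activate Nr1d1 and Nr1d2, the genes of the REV-ERB nuclear receptors that repress Arntl, and Dbp, a transcription factor of the output arm that binds D-boxes. In peripheral tissues such as rodent liver, Dbp and Nr1d1 are known for large daily rhythms, and Arntl runs in antiphase to them.

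The sequence before each gene's start was examined for the letters through which these factors are known to act, and 4 windows are shown, that of Dbp, which holds none of these letters, and 3 that between them hold each kind of match found in the clock genes. The windows are RefSeq promoter sequences of build GRCr8, 250 bases before to 50 bases after the annotated start, printed 5′ to 3′ on the strand of the gene. Capitals mark a motif match, and a window without capitals holds none of the letters searched. Dbp lies at chr1:105312006-105312305 on the plus strand, Arntl (listed there as Bmal1) at chr1:176766078-176766377 on the plus strand, the second of 2 windows of Nr1d1 at chr10:84229405-84229704 on the minus strand, and Per2 at chr9:99496944-99497243 on the minus strand.
Dbp: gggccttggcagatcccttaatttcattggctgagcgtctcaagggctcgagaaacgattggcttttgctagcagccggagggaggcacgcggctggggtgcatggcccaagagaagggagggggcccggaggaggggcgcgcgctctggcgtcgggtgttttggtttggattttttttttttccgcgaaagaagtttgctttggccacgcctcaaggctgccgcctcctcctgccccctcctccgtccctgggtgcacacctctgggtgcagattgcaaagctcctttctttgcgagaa
Arntl: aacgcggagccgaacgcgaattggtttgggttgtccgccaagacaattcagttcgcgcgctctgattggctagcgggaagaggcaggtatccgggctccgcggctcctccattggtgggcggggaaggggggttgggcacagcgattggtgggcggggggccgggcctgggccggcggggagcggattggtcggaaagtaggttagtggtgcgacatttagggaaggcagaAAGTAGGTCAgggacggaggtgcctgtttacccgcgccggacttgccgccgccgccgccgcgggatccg
Nr1d1: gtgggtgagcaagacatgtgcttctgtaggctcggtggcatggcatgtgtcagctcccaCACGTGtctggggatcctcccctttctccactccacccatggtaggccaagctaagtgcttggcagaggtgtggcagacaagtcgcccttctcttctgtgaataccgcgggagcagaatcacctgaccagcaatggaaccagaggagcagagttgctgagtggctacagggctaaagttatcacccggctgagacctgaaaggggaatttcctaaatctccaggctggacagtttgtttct
Per2: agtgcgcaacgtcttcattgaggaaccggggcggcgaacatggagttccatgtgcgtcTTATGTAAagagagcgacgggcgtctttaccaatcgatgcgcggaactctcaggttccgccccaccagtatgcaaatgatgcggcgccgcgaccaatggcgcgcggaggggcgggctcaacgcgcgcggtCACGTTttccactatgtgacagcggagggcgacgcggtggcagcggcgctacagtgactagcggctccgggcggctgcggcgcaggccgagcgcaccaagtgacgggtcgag

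RefSeq held windows for 9 of the 10 genes, and Cry1 is named only. The letters were searched on both strands, and no match overlapped another in these windows. The E-box CACGTG, present in 6.42% of all 33469 windows, was found in the second window of Nr1d1 at position -191 from the gene's start. Its variant CACGTT or AACGTG, present in 4.83% of windows, was found in Per2, in Cry2 and in the first window of Nr1d1. The D-box (TTATGTAA, TTACATAA, TTATGCAA or TTGCATAA), present in 1.73% of windows, was found in Per2. The REV-ERB and ROR element (AANT followed by AGGTCA or by GGGTCA), present in 0.481% of windows, was found in Arntl at position -19. The cAMP response element TGACGTCA, present in 1.83% of windows, and the glucocorticoid response element (AGAACA, 3 bases of any kind and TGTTCT), present in 0.0149%, were in none of the 9 genes' windows. A match describes letters in a window of this length and not a bound site.

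The kept libraries held 172700 to 1240091 counts in hypothalamus (n = 47), 231929 to 2804779 in pituitary (n = 48), 208981 to 1136183 in thyroid (n = 46) and 106742 to 3387946 in liver (n = 37), where 11 of the 14 libraries under the depth minimum lay. By tissue, the combination, PFOS, vancomycin and vehicle groups kept 11, 12, 12 and 12 hypothalamus libraries, 12 pituitary libraries each, 12, 10, 12 and 12 thyroid libraries, and 10, 8, 10 and 9 liver libraries. Each tissue had its defining markers. Levels are in CPM, a gene's counts scaled to 1e6 counts of its library. Gh1, the growth hormone gene, averaged 291101 CPM in pituitary, Tg, the thyroglobulin gene, 53299 CPM in thyroid, and Alb, the albumin gene, 63954 CPM in liver. Thyroid libraries also held the parathyroid gene Pth at 42043 CPM and the C cell gene Calca at 8069 CPM. Markers of the other tissue on a sequencing plate were present at a lower level, with Gh1 at 4467 CPM in hypothalamus and Tg at 1107 CPM in liver. The labelled PFOS hypothalamus library number 31 stood apart, with 4.86 CPM of Oxt, the oxytocin gene, against a mean of 1178.5 CPM over all hypothalamus libraries. Treatments occupied separate plate rows, so treatment and row cannot be told apart. Hypothalamus and thyroid libraries used the same set of well barcodes, and pituitary and liver libraries shared another. Across plates, Gh1 averaged 126 CPM in liver and 7.37 CPM in thyroid, and Alb 27.7 CPM in pituitary and 4.68 CPM in hypothalamus. Tg averaged 24.9 CPM in hypothalamus and 0.263 CPM in pituitary, and Pth 20.5 and 0.226 CPM in those tissues. Each was higher in the tissue that shared barcodes with its own. Calca was not, at 8.21 CPM in hypothalamus and 9.18 CPM in pituitary. The source of these counts was not tested.

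All 10 genes had counts in every tissue, at levels from below 1 CPM to 85.4 CPM. CPM from 3′ tags depend on how each gene's end is captured, so levels are compared here within a gene and not between genes. In bulk tissue, a lower level can come from fewer cells of a type or from less RNA per cell, and these cannot be told apart.

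Dbp, the output regulator, varied most between libraries of the same group in thyroid and liver. In hypothalamus, the lowest, median and highest library had 33.3, 44.5 and 59.1 CPM under the combination, 19.4, 48.2 and 79.0 CPM under PFOS, 24, 44 and 65.2 CPM under vancomycin, and 25.9, 49.8 and 68.2 CPM in vehicle. In liver, the same 3 values were 6.92, 25.9 and 78.8 CPM under the combination, 0, 31.5 and 64.9 CPM under PFOS, 0, 15 and 40.8 CPM under vancomycin, and 2.08, 13.4 and 85.4 CPM in vehicle. All 4 groups overlapped in both tissues, and each liver group ran from 6.92 CPM or less to at least 40.8 CPM. Thyroid medians were 49.7 CPM under the combination, 41.8 CPM under PFOS, 29.1 CPM under vancomycin and 28.3 CPM in vehicle, with single libraries between 6.31 and 79.0 CPM. Pituitary medians lay closer together, at 34.6, 36.6, 28 and 29.2 CPM in the combination, PFOS, vancomycin and vehicle groups, with libraries between 6.58 and 49.3 CPM.

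The REV-ERB genes followed the same order of spread. Nr1d2 medians in hypothalamus were 28.2 CPM under the combination, 30.5 CPM under PFOS, 24.1 CPM under vancomycin and 24.5 CPM in vehicle. In liver they were 19.1, 17.6, 11 and 18.6 CPM in the same groups, with libraries between 1.26 and 61.0 CPM. Pituitary medians lay between 25.3 and 29.4 CPM and thyroid medians between 22.6 and 31.5 CPM. Nr1d1 in hypothalamus had a lowest, median and highest library of 11.3, 17.2 and 26 CPM under the combination, 9.04, 16.5 and 30 CPM under PFOS, 6.04, 16.1 and 30.7 CPM under vancomycin, and 2.41, 13.7 and 18 CPM in vehicle. The vehicle libraries reached the lowest values and the lowest ceiling there, but their range overlapped that of each other group. Nr1d1 medians in liver were 9.83 CPM under the combination, 8.81 CPM under PFOS, 2.75 CPM under vancomycin and 2.50 CPM in vehicle, and in thyroid 9.51, 8.86, 4.38 and 3.45 CPM in the same groups. At the depth of these libraries such levels rest on few reads, and 3 of the 9 vehicle liver libraries had no Nr1d1 count.

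Of the activators, Clock had medians of 14, 12.0, 13.8 and 14 CPM in the combination, PFOS, vancomycin and vehicle hypothalamus, of 10.2 to 11.5 CPM in pituitary, of 14.2 to 19.7 CPM in thyroid and of 4.74 to 6.15 CPM in liver. Arntl, its partner, was detected in nearly all hypothalamus and pituitary libraries, with medians of 9.41, 11.4, 8.38 and 9.39 CPM in the combination, PFOS, vancomycin and vehicle hypothalamus and of 5.78 to 7.30 CPM in pituitary. In thyroid, 14 of 46 libraries had no Arntl count, and 7 of these were in the combination group, whose libraries were the shallowest there, with a median of 383436 counts, against 484696 under PFOS, 555940 under vancomycin and 841097 in vehicle. Depth also differed between the hypothalamus groups, at medians of 531350, 662537, 751640 and 875790 counts in the combination, PFOS, vancomycin and vehicle groups. In liver, 22 of 37 had none. Because so many libraries had no count, the Arntl medians of thyroid and liver carry little information on the groups.

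Among the repressors, Cry2 had medians of 31, 31, 29 and 27.7 CPM in the combination, PFOS, vancomycin and vehicle hypothalamus, against 10.1 to 15.2 CPM in pituitary, 9.88 to 14.6 CPM in thyroid and 9.35 to 14.6 CPM in liver. Cry1 medians lay between 1.39 and 8.81 CPM over the 16 groups, and Per2 medians between 3.16 and 10.2 CPM. Per3 was near the detection limit, with medians between 0 and 2.73 CPM. Per1, the immediate responder of the Per genes, totalled 23 counts over all hypothalamus libraries, 23 in pituitary, 11 in thyroid and 5 in liver, so its level could not be followed here. The plot of levels by library shows Dbp, Nr1d1, Nr1d2 and Cry2.

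**Figure D1:**
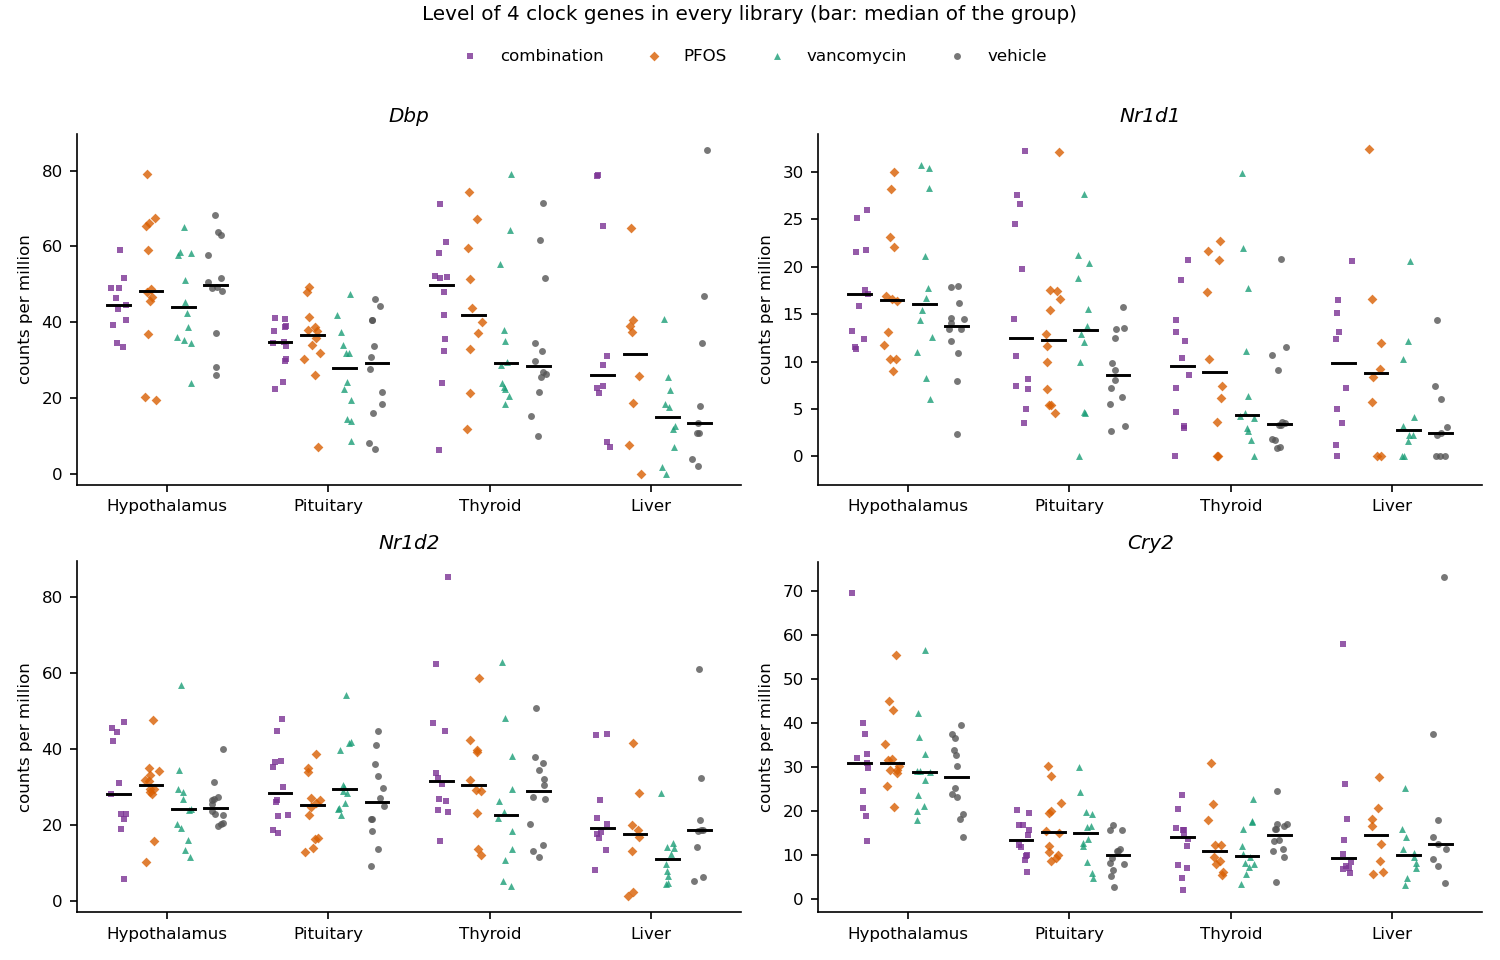
Level in CPM (y axis) of Dbp, Nr1d1, Nr1d2 and Cry2 in every kept library, by tissue (x axis) and treatment (colour and marker, from combination to vehicle in each tissue). Each point is 1 library and each bar the median of its group, and in liver the Dbp libraries of every group spread from under 10 CPM to over 40 CPM.

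The treatment contrasts asked whether PFOS, vancomycin or both moved the clock genes in any tissue. No clock gene passed the test in any of them. The test was edgeR's quasi-likelihood F test with Benjamini-Hochberg adjustment over all genes with enough counts, called at an adjusted p under 0.05. Of the 10 genes, 5 had enough counts to enter it in hypothalamus (Clock, Cry2, Dbp, Nr1d1 and Nr1d2), 3 in thyroid (Clock, Dbp and Nr1d2), and Dbp and Nr1d2 in pituitary and in liver. Over 7 contrasts per tissue this made 84 values, of which 0 were called and 1 had an unadjusted p under 0.05. DESeq2 called 0, with 2 at an unadjusted p under 0.05, and the lowest adjusted p under any of 11 alternative settings was 0.103. Every contrast against vehicle in a tissue used the same vehicle libraries, so these values are not independent of each other.

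The same test called 8.14% of the 6596 genes in hypothalamus for the combination against vehicle, 4.37% for PFOS against vehicle, 7.82% for the combination against vancomycin and 20.3% for the PFOS effect pooled over rats with and without vancomycin. In thyroid those shares were 2.79%, 0.0589%, 3.24% and 13.1% of 5091 genes, in pituitary 1.37%, 1.19%, 0% and 1.44% of 4380 genes, and in liver 0.769%, 0.831%, 0.923% and 3.54% of 3250 genes. The combination against PFOS and the interaction called 0% in every tissue. Vancomycin against vehicle called 0.0228% of genes in pituitary and 0% in each of the other tissues. Beside these shares, 0 of 2 to 5 genes tested in a tissue is not a result about the clock genes.

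In hypothalamus, Nr1d1 had the widest separation from vehicle among the members tested there. Its log2 fold change against vehicle was 0.39 ± 0.24 under the combination (SE, adjusted p = 0.330), 0.38 ± 0.22 under PFOS (adjusted p = 0.342) and 0.34 ± 0.22 under vancomycin (adjusted p = 1), all by edgeR. Cry2 had a log2 fold change of 0.29 ± 0.17 under PFOS (adjusted p = 0.327, edgeR). Dbp was at -0.20 ± 0.17 under the combination, -0.02 ± 0.16 under PFOS and -0.15 ± 0.16 under vancomycin, and Clock at 0.02 ± 0.24, -0.20 ± 0.23 and -0.09 ± 0.22. Each of these lies within about 2 standard errors of no change.

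In liver, where the spread was widest, the estimates were also the least precise. Dbp had a log2 fold change against vehicle of 0.87 ± 0.56 under the combination (SE, adjusted p = 0.646), 0.38 ± 0.63 under PFOS (adjusted p = 0.905) and -0.04 ± 0.63 under vancomycin (edgeR). Nr1d2 was at 0.20 ± 0.38, -0.16 ± 0.43 and -0.61 ± 0.41 under the same treatments. The single value with an unadjusted p under 0.05 was Nr1d2 in liver for the combination against vancomycin, at 0.82 ± 0.36 (p = 0.0292, adjusted p = 0.505, edgeR), where 0.923% of all genes were called.

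In thyroid, Dbp had log2 fold changes against vehicle of 0.33 ± 0.28 under the combination, 0.29 ± 0.28 under PFOS and 0.10 ± 0.27 under vancomycin, and Nr1d2 of 0.37 ± 0.29, 0.13 ± 0.30 and -0.17 ± 0.29. Clock was at 0.25 ± 0.25, -0.17 ± 0.26 and -0.21 ± 0.25. In pituitary, Dbp was at 0.19 ± 0.22, 0.31 ± 0.22 and -0.11 ± 0.22, and its pooled PFOS effect of 0.30 ± 0.15 (p = 0.0501, adjusted p = 0.506, edgeR) was the closest to the threshold in that tissue. Pituitary Nr1d2 was at 0.15 ± 0.21, -0.10 ± 0.22 and 0.23 ± 0.21. The plot of log2 fold changes shows the same values with their standard errors.

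**Figure D2:**
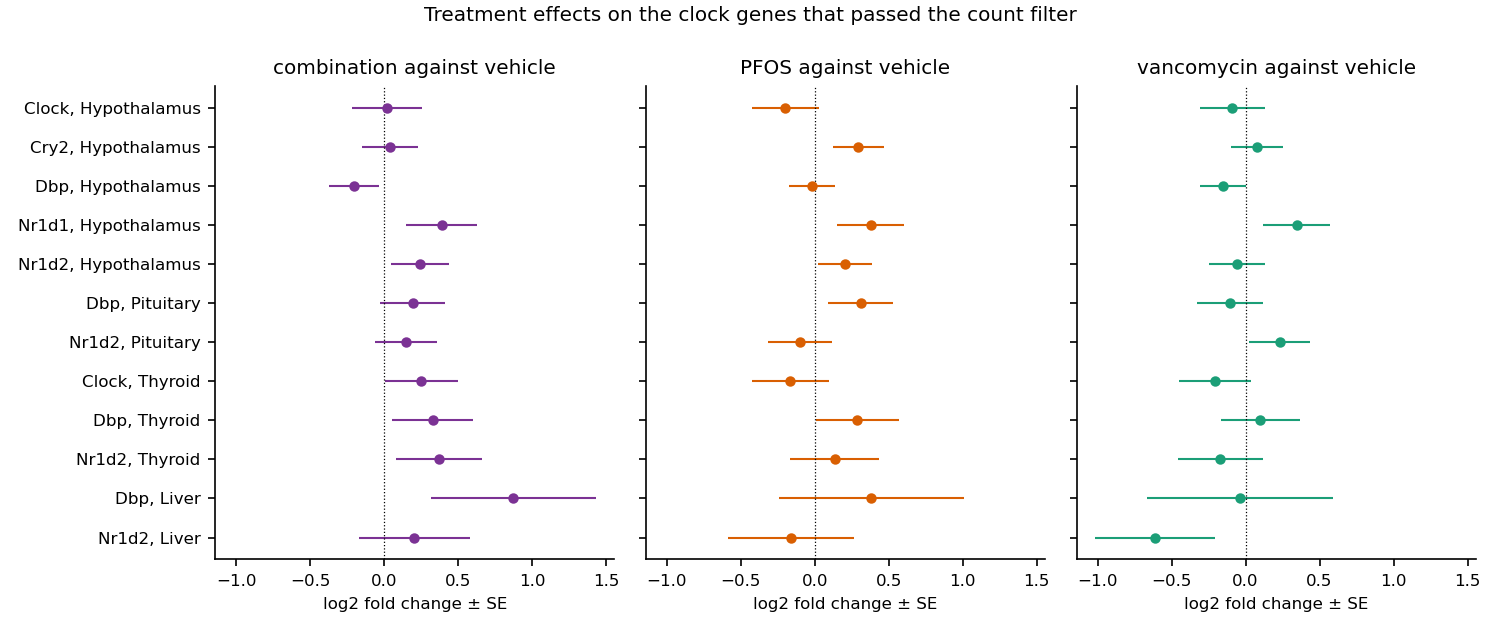
Log2 fold change (x axis) of each clock gene that passed the count filter in a tissue (y axis), for the combination, PFOS and vancomycin against vehicle. Points are edgeR estimates and bars their standard errors, and the liver estimates of Dbp have the longest bars.

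Leaving the count filter out let all 10 genes into the test in each tissue, and again 0 were called by edgeR. Of the 70 values per tissue, an unadjusted p under 0.05 was seen for 1 in hypothalamus, 6 in pituitary, 4 in thyroid and 6 in liver, and the lowest adjusted p were 0.273, 0.391, 0.323 and 0.579. Without the filter, the combination against vehicle, PFOS against vehicle, the combination against vancomycin and the pooled PFOS effect called 2.32%, 1.08%, 2.22% and 7.74% of all genes in hypothalamus. Those shares were 0.342%, 0.26%, 0% and 0.438% for pituitary genes, 0.913%, 0.047%, 0.919% and 3.31% for thyroid genes and 0.181%, 0.101%, 0.167% and 0.362% for liver genes. The other 3 contrasts called 0%.

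The treatment effects were also set against each other between tissues, in 1 model of all 16 groups over 7868 genes. No clock gene passed. The largest difference with a small unadjusted p was that of Dbp under the combination, whose log2 fold change was lower in hypothalamus than in liver by a difference of -1.34 ± 0.45 (SE, p = 0.0032, adjusted p = 0.107, edgeR). In that comparison 1.79% of genes were called.

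Genes outside the 10 that regulate the clock were tested in the same fits, from a list of 22 genes of which 19 were in the tables. In the pooled PFOS effect, 2 of the 12 tested in hypothalamus rose and 2 fell, where 20.3% of all genes were called, with a median log2 fold change over the 12 of 0.07 against 0.0042 over all genes. Bhlhe40, a repressor that competes for E-boxes, rose by 0.48 ± 0.17 (SE, adjusted p = 0.0370, edgeR). Csnk2a1, a kinase subunit gene, fell by 0.58 on the log2 scale (SE 0.18, adjusted p = 0.0175) and Rorb, a nuclear receptor gene, by 0.53 (SE 0.17, adjusted p = 0.0226). In thyroid, where 13.1% of all genes were called, 1 of 8 rose and 1 fell, and the gene that fell was again Csnk2a1, at -1.01 ± 0.20 (adjusted p = 0.000775), with a list median of 0.12 against 0.016 over all genes. In pituitary, where 1.44% of all genes were called, 1 of 7 fell, with a list median of -0.08 against -6e-04 over all genes, and in liver 0 of 3 were called. With log2 total counts as a covariate, these calls were lost, with Bhlhe40 at 0.47 (adjusted p = 0.140), Csnk2a1 at -0.33 (adjusted p = 0.344) and Rorb at -0.39 (adjusted p = 0.241) in hypothalamus, and Csnk2a1 at -0.52 (adjusted p = 0.472) in thyroid. With the GC content of the well barcode as a covariate, Rorb in hypothalamus was at -0.49 (adjusted p = 0.0619). Of 10 alternative settings in hypothalamus, Bhlhe40 stayed called in 5, Rorb in 7 and Csnk2a1 in 9. Csnk2a1 in thyroid stayed called in 8 of 9.

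Of 25 clock output genes, 23 were in the tables, and 1 of the 12 tested in liver was called in the pooled PFOS effect, where 3.54% of all genes were called, with a list median of 0.28 against -0.0099 over all genes. It was Alas1, which encodes the rate-limiting enzyme of heme synthesis and is also induced by xenobiotics, at 0.93 ± 0.17 (SE, adjusted p = 0.000695, edgeR). Alas1 was also called for the combination against vancomycin in liver, at 1.03 ± 0.24 (adjusted p = 0.0142), where 0.923% of all genes were called. No clock output gene was called in hypothalamus, pituitary or thyroid by edgeR, where 10, 6 and 9 were tested. Among glucocorticoid response genes, Mt2A, a metallothionein gene, fell by 0.38 in the pooled PFOS effect in hypothalamus (SE 0.12, adjusted p = 0.0252), 1 of 8 tested, and Sgk1, a kinase gene induced by corticosteroids, fell by 0.52 in thyroid (SE 0.16, adjusted p = 0.0248), 1 of 7 tested. Among immediate early genes, Dusp6, a phosphatase gene of the ERK pathway, rose by 0.53 ± 0.17 in hypothalamus (adjusted p = 0.0272), 1 of 4 tested. With 20.3% of all genes called in hypothalamus and 13.1% in thyroid, 1 of 8, 1 of 7 and 1 of 4 are not results about these lists. With log2 total counts as a covariate, Alas1 in liver stayed called for the pooled PFOS effect at 0.89 (adjusted p = 0.00131), while Mt2A at -0.33 (adjusted p = 0.168), Sgk1 at -0.24 (adjusted p = 0.718) and Dusp6 at 0.58 (adjusted p = 0.0653) were not. Without the PFOS hypothalamus library number 31, Dusp6 was at 0.41 (adjusted p = 0.0522). For the pooled PFOS effect, Dusp6 stayed called in 6 of 10 alternative settings, Mt2A in 8 of 10, Sgk1 in 6 of 9 and Alas1 in 9 of 9. For the combination against vancomycin in liver, Alas1 stayed called in 6 of 10.

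The order of levels over tissues was read from vehicle libraries alone, in 1 edgeR fit of 6560 genes that 4 clock genes entered. Tissue pairs differed at 64.8% to 76.1% of all genes, 75.4% for hypothalamus over liver, 68.2% for hypothalamus over pituitary, 76.1% for hypothalamus over thyroid, 70.6% for pituitary over liver, 64.8% for thyroid over liver and 68.3% for pituitary over thyroid. Cry2 was higher in hypothalamus than in pituitary by a log2 fold change of 0.80 ± 0.25 (SE, adjusted p = 0.00369) and than in thyroid by 0.75 ± 0.21 (adjusted p = 0.00107). It was lower in pituitary than in liver, at -1.26 ± 0.33 (adjusted p = 0.000580), and lower in thyroid than in liver, at -1.21 ± 0.30 (adjusted p = 0.000353), but without scaling factors these 2 values were -0.44 (adjusted p = 0.243) and -0.08 (adjusted p = 0.816). With at least 500000 counts per library, Cry2 was no longer called for hypothalamus over pituitary (0.56, adjusted p = 0.174), pituitary over liver (-0.61, adjusted p = 0.287) or thyroid over liver (-0.84, adjusted p = 0.0640).

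Nr1d2 was called lower in hypothalamus than in liver, at -0.82 ± 0.29 (SE, adjusted p = 0.00929, edgeR), and lower than in pituitary, at -0.59 ± 0.23 (adjusted p = 0.0199), but its direction flipped to 0.59 against liver without scaling factors (adjusted p = 0.0569) and to 0.11 against pituitary with at least 500000 counts per library (adjusted p = 0.839). Dbp passed in no pair, with log2 fold changes between -0.11 and 0.25 over the 6, nor did Clock, whose lowest adjusted p was 0.0699 for hypothalamus over thyroid at -0.43. The mean scaling factors were 1.41 in hypothalamus, 0.939 in pituitary, 1.17 in thyroid and 0.569 in liver, so leaving them out moves every gene by about 1.31 on the log2 scale for hypothalamus over liver, and none of the calls that involve liver held under both scalings. For hypothalamus over liver, 42.6% of all genes were called higher and 32.9% lower with the factors, and 74.6% and 15.2% without them. Without the factors Dbp was called higher in hypothalamus than in liver at 1.53 (adjusted p = 0.000177), and Clock at 0.996 (adjusted p = 0.00541).

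Libraries of the same number were then compared between tissues, to see whether the clock genes deviated together. Deviations are of log2 CPM from the mean of the treatment group, p-values come from two-sided permutation within treatment, and adjusted p-values are over all genes tested in both tissues. Dbp had a positive correlation in all 6 tissue pairs, as did 9.33% of the 2369 genes tested in all of them. Between hypothalamus and thyroid, Pearson's r was 0.50 (n = 45, p = 0.00062, adjusted p = 0.00440) and Spearman's rho 0.48 (p = 0.00145). Without the 2 libraries farthest from the median r was 0.44, and within the combination, PFOS, vancomycin and vehicle groups it was 0.08, 0.69, 0.44 and 0.68. This was the only one of the 6 pairs in which Dbp was called, and there 23.4% of the 4474 genes tested were called positive. Hypothalamus and thyroid used the same well barcodes, and the part of this in the correlation was not tested.

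In the tissue pairs that share no barcode set, Dbp had r = 0.48 between hypothalamus and pituitary (n = 47, p = 0.00222, adjusted p = 0.135; rho 0.30, p = 0.0468), where 1.04% of genes were called positive. Between pituitary and thyroid it had r = 0.47 (n = 46, p = 0.00123, adjusted p = 0.0905; rho 0.38, p = 0.0136), where 1.18% were called, and between thyroid and liver r = 0.45 (n = 36, p = 0.00759, adjusted p = 0.459; rho 0.46, p = 0.00756), where 0.331% were called. Without the 2 farthest libraries these were 0.40, 0.39 and 0.36. Within the combination, PFOS, vancomycin and vehicle groups, Dbp had r = -0.23, 0.60, 0.67 and 0.39 between hypothalamus and pituitary, 0.02, 0.69, 0.24 and 0.74 between pituitary and thyroid, and 0.72, 0.67, 0.02 and 0.28 between thyroid and liver. Hypothalamus against liver gave 0.16 (p = 0.398, adjusted p = 0.919; rho 0.22, p = 0.218), where 0.262% were called. Pituitary and liver do share a barcode set, and there Dbp had r = 0.20 (p = 0.283, adjusted p = 0.573; rho 0.11, p = 0.525), where 11.1% were called.

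Nr1d2 was called between pituitary and liver, with r = 0.56 (n = 37, p = 0.00119, adjusted p = 0.0158) and rho 0.55 (p = 0.00102), in the pair in which 11.1% of genes were called and which shares a barcode set. Its r within the combination, PFOS, vancomycin and vehicle groups was 0.05, 0.69, 0.47 and 0.74, and 0.47 without the 2 farthest libraries. The call was lost when deviations were centred on the well column (r = 0.25, adjusted p = 0.371) and when log2 total counts were regressed out (r = 0.53, adjusted p = 0.117). With log2 total counts regressed out, 11 of 2450 genes were called positive, against 271 without that step, while r of Nr1d2 changed little. Nr1d2 had lower levels in deeper libraries within pituitary (r = -0.53 with log2 total counts, p = 0.00015, adjusted p = 0.0128 over 171 relations; rho -0.46, p = 0.0017; -0.46 without the 2 farthest). Nr1d1 entered only when genes averaging at least 1 count were taken. It was then called between thyroid and liver, with r = 0.67 (n = 36, p = 6e-05, adjusted p = 0.0246) and rho 0.61 (p = 0.00024), where 0.326% of 7371 genes were called positive. Its r was 0.77, 0.88, 0.60 and 0.19 within the combination, PFOS, vancomycin and vehicle groups and 0.58 without the 2 farthest libraries.

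Over the same 2369 genes, Dbp was positive with an unadjusted p under 0.05 in 4 of 6 pairs, and 36 genes (1.52%) were so in as many. In the 4 pairs without a shared barcode set the count was 3 for Dbp, and 23 genes (0.971%) had as many. Nr1d2 was positive with an unadjusted p under 0.05 in 5 of 6 pairs, which 17 genes (0.718%) matched. Of 36 numbers with all 4 tissues, 6 were above and 3 below their group's mean of Dbp in every tissue. The plot of Dbp in same-numbered libraries shows the 6 pairs.

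**Figure D3:**
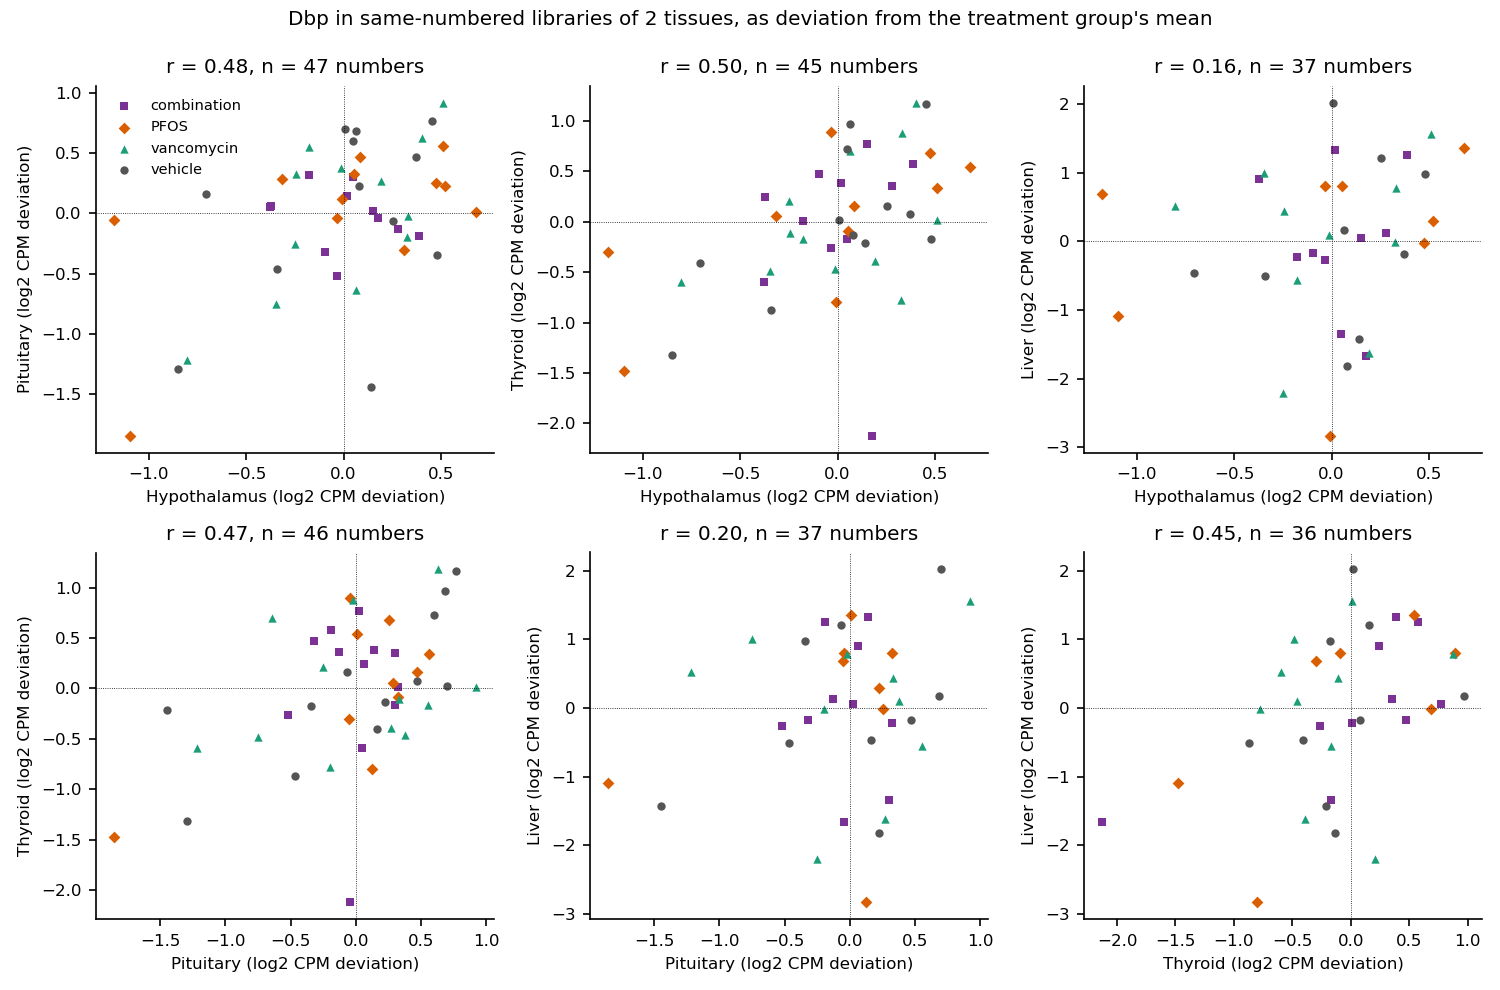
Deviation of Dbp (log2 CPM minus the mean of the treatment group) in 1 tissue (x axis) against another (y axis), for libraries of the same number, with 1 panel per tissue pair. Points are numbers, colour and marker give the treatment, and r runs from 0.16 between hypothalamus and liver to 0.50 between hypothalamus and thyroid.

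Number 30, of the PFOS group, was chosen after its values were seen as the number with the lowest mean Dbp deviation. It had 20.2 CPM of Dbp in hypothalamus, 6.98 CPM in pituitary, 11.7 CPM in thyroid and 7.48 CPM in liver, below the PFOS medians of 48.2, 36.6, 41.8 and 31.5 CPM in those tissues. Nr1d2 was also below its PFOS median in all 4, at 10.1, 16.3, 13.7 and 2.49 CPM. Arntl was above its PFOS median in all 4, at 11.8, 11.6, 13.7 and 9.98 CPM. Number 20, of the vancomycin group, had the highest mean Dbp deviation and was also chosen after its values were seen. Its Dbp was 65.2 CPM in hypothalamus, 47.3 CPM in pituitary, 35 CPM in thyroid and 40.8 CPM in liver, all above the vancomycin medians. The next lowest were number 47, above its combination median in hypothalamus (48.9 against 44.5 CPM), and number 29, below its PFOS median in all 4. The next highest were number 1, below its vehicle median in hypothalamus (48.3 against 49.8 CPM), and number 35, below its PFOS median in pituitary (31.8 against 36.6 CPM). Number 30 alone moved several of these results. Without it, Dbp had r = 0.43 between hypothalamus and thyroid (adjusted p = 0.0156), 0.36 between hypothalamus and pituitary (adjusted p = 0.483), 0.37 between pituitary and thyroid (adjusted p = 0.424) and 0.43 between thyroid and liver (adjusted p = 0.633), and Nr1d1 between thyroid and liver lost its call (r = 0.62, adjusted p = 0.0865).

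Within a tissue, Dbp was called with both REV-ERB genes in thyroid, and in liver with Nr1d2 or with Cry2, by the gene filter. In thyroid, Dbp and Nr1d1 had r = 0.68 (n = 46, p = 1e-05, the smallest the permutations can give, adjusted p = 0.00961) and rho 0.69, among 9612 genes averaging at least 1 count, of which 0.229% were called positive with Dbp. Their r was 0.63, 0.80, 0.69 and 0.62 within the combination, PFOS, vancomycin and vehicle groups, and it was 0.64 without number 30 (adjusted p = 0.0160). Dbp and Nr1d2 had r = 0.52 (p = 0.00023, adjusted p = 0.0303) and rho 0.48 (p = 0.00127), where 0.747% of 5090 genes were called positive. Within the combination, PFOS, vancomycin and vehicle groups it was 0.71, 0.73, 0.43 and 0.36. Without the 2 libraries farthest from the median of Nr1d1 or Nr1d2, these thyroid values were 0.62 and 0.50, and the call of Nr1d2 was lost without number 30 (r = 0.49, adjusted p = 0.0584).

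In liver, Dbp and Nr1d2 had r = 0.59 (n = 37, p = 0.00045, adjusted p = 0.0292) and rho 0.63 (p = 8e-05), where 1.14% of 3249 genes were called positive with Dbp. This r was 0.84, 0.87, -0.06 and 0.64 within the combination, PFOS, vancomycin and vehicle groups, and 0.48 without the 2 libraries farthest in Nr1d2. The call was lost among genes averaging at least 1 count (adjusted p = 0.0601), without number 30 (r = 0.58, adjusted p = 0.0598) and when deviations were centred on the well column (r = 0.34, adjusted p = 0.207). Dbp and Cry2 had r = 0.63 (p = 1e-04, adjusted p = 0.0271) and rho 0.61 (p = 0.00017) among genes averaging at least 1 count, of which 0.361% were called positive, and r = 0.77, 0.64, 0.36 and 0.76 within the combination, PFOS, vancomycin and vehicle groups. The value was 0.58 without the 2 libraries farthest in Cry2 and 0.64 without number 30 (adjusted p = 0.0215). Dbp and Nr1d1 were not called in liver, at r = 0.32 (p = 0.0656, adjusted p = 0.382) and rho 0.30 (p = 0.0861), with 0.62, 0.78, -0.10 and -0.05 within the combination, PFOS, vancomycin and vehicle groups.

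Arntl, the activator that REV-ERB proteins repress, had negative correlations with Nr1d1, Nr1d2 and Dbp in thyroid and liver, and none passed the adjustment over all genes. In thyroid, Arntl and Nr1d2 had r = -0.56 (p = 8e-05, adjusted p = 0.204) and rho -0.53 (p = 0.00045), and the sign was negative within all 4 treatments, at -0.50, -0.56, -0.84 and -0.26 in the combination, PFOS, vancomycin and vehicle groups. Arntl and Nr1d1 had r = -0.54 (p = 0.00016, adjusted p = 0.352) and rho -0.50 (p = 0.00084), also negative within all 4 treatments. In liver, Arntl and Dbp had r = -0.47 (p = 0.00589, adjusted p = 0.448) and rho -0.47 (p = 0.00382), negative within all 4. Without the 2 libraries farthest in Arntl these were -0.50, -0.48 and -0.50. Arntl and Dbp in thyroid had r = -0.32 (p = 0.0399), and in liver Arntl had r = -0.41 with Nr1d1 (p = 0.0208) and -0.43 with Nr1d2 (p = 0.0115), unadjusted. With Cry2 it had 0.01 in thyroid and -0.32 in liver (unadjusted p = 0.962 and 0.0518). Of the 37 liver libraries, 22 had no Arntl count. Arntl was detected in nearly all hypothalamus and pituitary libraries, but its values with these genes there are not given here. In each of those tissues, 2 of 36 pairs of clock genes had an unadjusted p under 0.05. The negative sign is therefore stated for thyroid and liver alone. Arntl was positively called with 0% of genes in hypothalamus, thyroid and liver and with 0.0228% in pituitary.

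Per2 and Cry1, whose proteins act together as repressors, had r = 0.46 in thyroid (p = 0.00242; rho 0.61, p = 5e-05) and r = 0.45 in liver (p = 0.0106; rho 0.44, p = 0.0109), positive within all 4 treatments in both tissues and 0.47 and 0.38 without the 2 libraries farthest in Per2; these p-values are unadjusted. Over all pairs of clock genes averaging at least 1 count, an unadjusted p under 0.05 was found for 11 of 36 in thyroid and 10 of 28 in liver, against 2 of 36 in hypothalamus and 2 of 36 in pituitary. Against Dbp, the same p was reached by 13.6% of all genes of that filter in thyroid and 14.5% in liver. In hypothalamus the share was 5.9% and in pituitary 8.94%, so genes correlated with Dbp more often in thyroid and liver. Against Arntl, 564 of 9612 genes reached it in thyroid and 438 of 7746 in liver. In hypothalamus 511 of 10579 did, and in pituitary 469 of 9241. Each share is for 1 partner gene, and pairs drawn from all genes were not tested. Whether the tissues differ in the count of clock gene pairs was not tested. In hypothalamus and pituitary, 0% of genes were called with Dbp. The plot of clock genes against Dbp shows the thyroid and liver libraries.

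**Figure D4:**
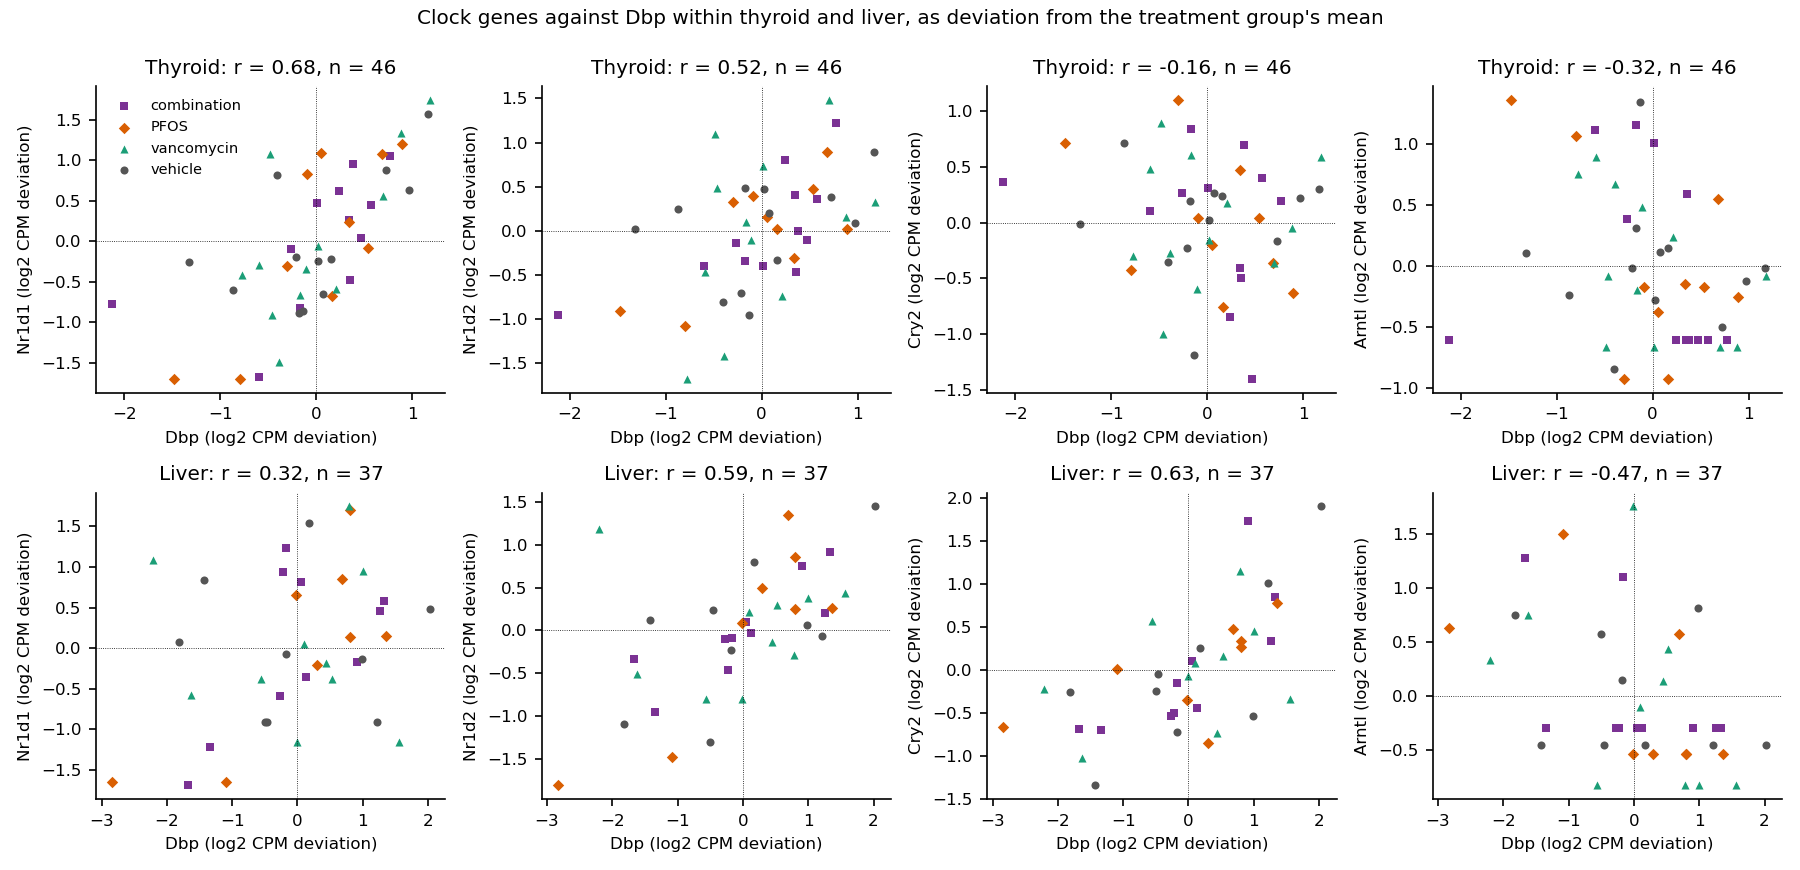
Deviation (log2 CPM minus the mean of the treatment group) of Nr1d1, Nr1d2, Cry2 and Arntl (y axes) against that of Dbp (x axes) in thyroid (top) and liver (bottom). Each point is 1 library with its treatment in colour and marker, and the Arntl panels slope down in both tissues.

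By the likeness rule, the 5 genes outside the 10 with the highest r with Dbp in liver were Mtss1 (0.69), Bckdha (0.69), Mknk2 (0.69), Fads1 (0.68) and Fasn (0.67), over 37 libraries, all called. Fasn encodes fatty acid synthase, Fads1 a fatty acid desaturase and Bckdha a subunit of the branched-chain keto acid dehydrogenase. In thyroid, over 46 libraries, they were Rbm3 (0.64), a cold-inducible RNA-binding protein gene, Pa2g4 (0.62), Hes6 (0.58), Slc16a11 (0.56) and Ubap2l (0.56), all called. In hypothalamus they were Sertad1 (0.52), Ppm1l (0.51), Mrrf (0.49), Rgs7 (0.48) and Pvalb (0.47) and in pituitary Morn2 (0.57), Zmat2 (0.56), Hscb (0.51), Sod2 (0.50) and Ankra2 (0.49), none called. No gene was on more than 1 of the 4 lists.

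For Arntl, the most alike in liver were Nr1i3 (0.64), the gene of the xenobiotic receptor CAR, Plin2 (0.62), Eif4ebp3 (0.56), Sult1a1 (0.56) and Cldn1 (0.55), none called. In thyroid they included Leo1 (0.59), Lingo4 (0.53), Egfl6 (0.53) and Brwd1 (0.51), none called. In pituitary Adhfe1 (0.60, adjusted p = 0.0438) was called, ahead of Cflar (0.50), Klf9 (0.48), Wtap (0.45) and Adh1 (0.44), and in hypothalamus Ercc3 (0.57), Banp (0.56), Ahsa1 (0.55), Bloc1s2 (0.50) and Ebp (0.48) were not.

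The summed level of the clock output list deviated with Dbp in liver, at r = 0.72 (p = 5e-05, the smallest the permutations can give here, adjusted p = 0.00855 over 171 relations) and rho 0.62 (p = 2e-04), with 0.67 without the 2 farthest libraries. In thyroid the sum deviated with Nr1d2 at r = 0.51 (p = 0.00025, adjusted p = 0.0142) and rho 0.60 (p = 5e-05). Summed markers of macrophages deviated with Nr1d1 in liver, at r = 0.54 (p = 9e-04, adjusted p = 0.0308) and rho 0.56 (p = 0.00055). All 9 of these markers had counts in liver, and they summed to 0.0117% to 0.0225% of counts in combination, 0.0148% to 0.0261% in PFOS, 0.0130% to 0.0234% in vancomycin and 0.0122% to 0.0256% in vehicle libraries. Dbp in liver had r = 0.46 with the same sum (p = 0.0069, adjusted p = 0.107; rho 0.36, p = 0.0390). The summed thyroid follicle markers, the other tissue on that plate, had r = 0.43 with Dbp in liver (p = 0.0111, adjusted p = 0.113; rho 0.43, p = 0.0072), and all 7 had counts there, at 0.0845% to 0.253% of counts in combination, 0.0841% to 0.215% in PFOS, 0.0775% to 0.117% in vancomycin and 0.0820% to 0.297% in vehicle libraries. The part of these markers in the correlations was not tested.

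The spread of the clock genes between libraries was wide for their tissue. The biological coefficient of variation, edgeR's estimate of the spread beyond counting error, was 0.788 for Dbp in liver, where the median over genes was 0.236 and 99.3% of genes had a lower value. It was 0.435 for Nr1d2 in liver, with 93.9% of genes lower. In thyroid it was 0.416 for Dbp and 0.435 for Nr1d2, with 96.4% and 97.1% of genes lower and a median of 0.180, and 0.226 for Clock, with 71.2% lower. In pituitary Dbp and Nr1d2 had 0.259 and 0.238, with 83.7% and 77.7% of genes lower. In hypothalamus the 5 clock genes tested lay between 0.205 and 0.250, with 74.5% to 87.2% of genes lower. These are descriptions, and the part of low counts in the estimates was not tested.

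Because the number of a library fixes its well column in every tissue and each treatment runs over the same 12 columns, the clock genes were also compared by column. Nr1d2 was low in column 5 in all 4 tissues, with a mean deviation of -0.60 in hypothalamus, -0.41 in pituitary, -0.51 in thyroid and -1.29 in liver. In column 8 it was high, at 0.38, 0.10, 0.41 and 0.58 in the same tissues. Arntl had 0.87 in column 5 and -0.46 in column 8 of thyroid, and 0.36 and -0.61 in those columns of liver. Dbp in column 8 was above the mean in all 4 tissues, at 0.36, 0.53, 0.44 and 0.68, and in column 5 of liver at -2.0. These 2 columns were chosen after their values were seen.

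No clock gene differed between the columns in edgeR's F test with the treatments in the model. The lowest p-values were those of Nr1d2 in liver (p = 0.00451, adjusted p = 0.231) and Dbp in liver (p = 0.0422, adjusted p = 0.438), and the other 10 tests had unadjusted p over 0.2. The test called 0% of genes in each tissue, and an unadjusted p under 0.05 was seen for 268 of 6596 genes in hypothalamus, 486 of 4380 in pituitary, 162 of 5091 in thyroid and 359 of 3250 in liver. With all genes averaging at least 1 count, 0.439% of 7747 genes were called in liver and 0% in the other tissues, with no clock gene among them. The labels do not say whether a column stands for a cage, a day or an order of sampling. The plot by well column shows Dbp, Nr1d2 and Arntl.

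**Figure D5:**
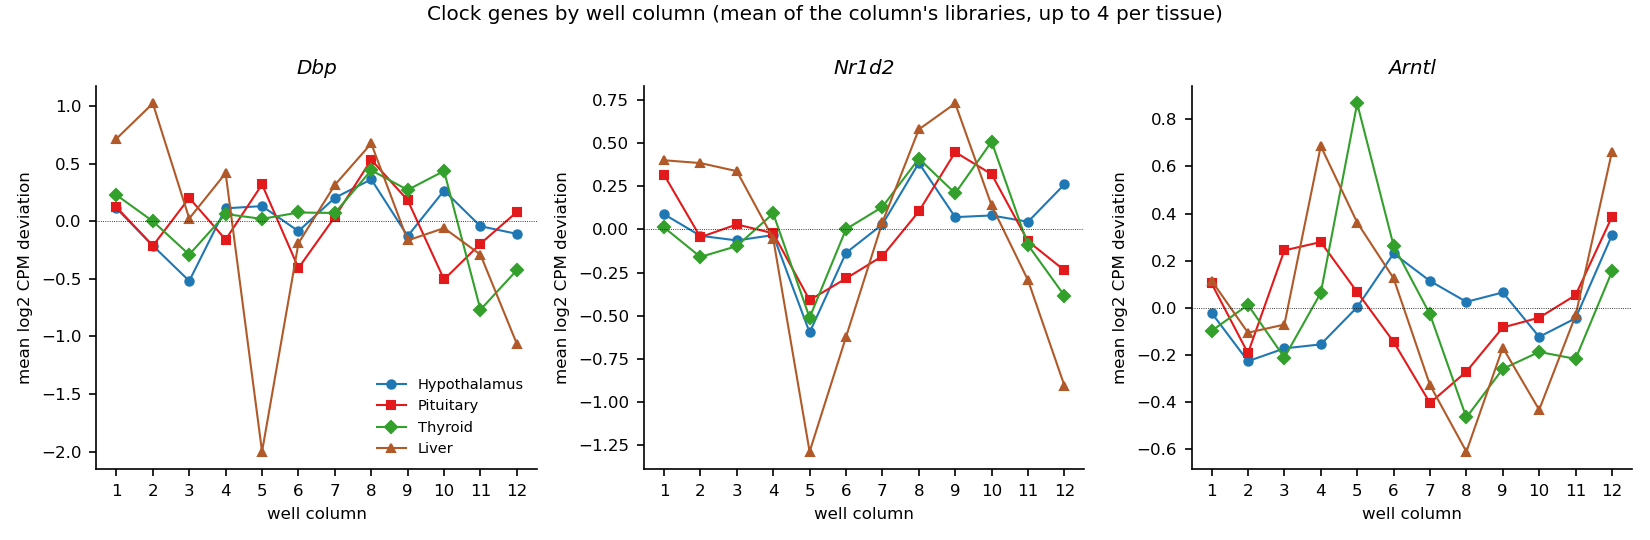
Mean deviation (log2 CPM minus the mean of the treatment group, y axis) of Dbp, Nr1d2 and Arntl by well column (x axis), with 1 line per tissue. Each point averages up to 4 libraries, 1 per treatment, and the 4 lines of Nr1d2 are all below 0 at column 5 and all above 0 at column 8.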

How the data were processed

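The deposited tables hold whole-number counts per gene and library, which the authors made by 3′ BRB-seq; the submitters' processing notes name BWA and the rn6 build, and the counting step is not given in the sources used here. Counts were used as deposited, and 14 libraries with under 100000 counts were left out. Levels are CPM of total counts. Treatments, tissues and well columns were tested with edgeR 4.0.16 (filterByExpr with a minimum count of 10, TMM scaling, robust quasi-likelihood F test, Benjamini-Hochberg adjustment over all genes tested), with DESeq2 1.42.0 and limma 3.58.1 as alternatives. Correlations used log2 CPM with a prior count of 2, centred on the treatment group, and 100000 permutations within treatment, or 5000 where p was above 0.1, and 20000 for marker sums and depth. The tests were tested on simulated data. Where nothing says that libraries of a group came from separate animals, p-values measure only the spread between libraries. The members and gene lists were chosen with earlier results of these data known. All 10 members are named, with called genes of the other lists and the 5 genes most like Dbp and Arntl in each tissue, except some genes that are not reported here.

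The same-numbered libraries deviated together with r over 0.1 for all 45 numbers only between hypothalamus and thyroid, which share barcodes. They did so for 18 of 47 in hypothalamus with pituitary and 15 of 37 in hypothalamus with liver. It was 19 of 46 in pituitary with thyroid, 29 of 37 in pituitary with liver and 10 of 36 in thyroid with liver. These values do not decide whether numbers pair the libraries, and the numbers were not taken to do so.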

Additional observations from a re-analysis of the deposited data

Results flagged for a closer look

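Of 47 sets of 4 to 10 libraries with counts of a clock gene, from the liver groups and the PFOS thyroid group, 12 had 1 library far above the rest, all in liver. For normally spread values chance gives about 1 in 20, and how often low counts with many zeros pass was not tested. The genes of a group were read from the same libraries, so the 47 sets are not independent. The 12 flags therefore cannot be weighed against that share. Cry2 had a highest library of 58.0 CPM in the combination group, where the next had 26.3 CPM, and of 73.2 CPM in vehicle, where the next had 37.5 CPM. Nr1d2 had 28.4 CPM in vancomycin, above 15.3 CPM, and 61.0 CPM in vehicle, which is number 1, above 32.3 CPM. Arntl had 9.98 CPM in PFOS, which is number 30, and 16.6 CPM in vancomycin. Per3 had 7.26 CPM in the combination group, 9.27 CPM in PFOS and 46.8 CPM in vehicle, where the next library had 3.59 CPM. Cry1 had 10.6 CPM in the combination group and 24.4 CPM in vehicle, and Per1 had 7.26 CPM in the combination group. At these depths several of these values rest on few counts. The shallowest liver library held 137827 counts in the combination group, 107856 in PFOS and 106742 in vehicle.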

How the results depend on the processing

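No clock gene was called for any treatment or for any difference of treatment effect between tissues under the alternatives run, and leaving out each library in turn was not run because no clock gene passed a treatment contrast. The clock genes called between vehicle tissues changed with the setting, beside 39% to 89.8% of all genes called under these settings. For hypothalamus over liver 1 was called (Nr1d2), then 2 with at least 500000 counts (Dbp and Per2), 2 without the count filter (Nr1d2 and Per2) and 3 without scaling factors (Clock, Cry2 and Dbp). For hypothalamus over pituitary it was 2 (Cry2 and Nr1d2), then 0 with 500000 counts and 1 without the filter (Cry2), and for hypothalamus over thyroid 1 (Cry2), then 2 with 500000 counts (with Arntl) and 3 without the filter (with Arntl and Nr1d1). For pituitary over liver it was 1 (Cry2), then 2 without the filter (with Per2) and 0 without scaling factors, and for thyroid over liver 1 (Cry2), then 2 without the filter (with Per2) and 3 without scaling factors (Clock, Dbp and Nr1d2). Nr1d2 reversed to 0.59 for hypothalamus over liver without scaling factors and to 0.11 for hypothalamus over pituitary with 500000 counts. The cause of these shifts was not tested.

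With the library number as a replicate block, the counts of clock genes called between vehicle tissues stayed at 1, 2, 1, 1, 0 and 1. Those for the differences of treatment effect between tissues stayed at 0, so the block changed no call in these 2 fits. Treatment contrasts within a tissue were not run with the block. A library's best match carried its own number for 30 of 45 numbers in hypothalamus with thyroid, which share barcodes. It did so for 7 of 47 in hypothalamus with pituitary and 7 of 37 with liver. Pituitary had 10 of 46 with thyroid and 12 of 37 with liver, and thyroid had 5 of 36 with liver. How many would match without pairing was not tested, so these counts do not decide whether numbers pair the libraries.

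The single call with Dbp in liver became 0 when centred on the well column, with 500000 counts, with a prior count of 0.5 and without number 30, and 2 with genes of a mean count of at least 1 centred on the well column. That in thyroid became 0 with Spearman's rho, with 500000 counts, without removing treatment means and without number 30, and 2 with genes of a mean count of at least 1, also when centred on the well column. With Arntl in thyroid, 0 became 1 in that last setting. For the same gene in hypothalamus and pituitary, 0 became 1 when centred on the well column, under both gene filters. In hypothalamus and thyroid, 1 became 2 without removing treatment means and with the wider gene set centred on the column. In pituitary and liver, 1 became 0 when centred on the column under both filters, with depth regressed out, with 500000 counts and with the wider set without number 30. In pituitary and thyroid, 0 became 1 when centred on the column under both filters and without removing treatment means, and in thyroid and liver 0 became 1 with the wider set. Centring on the well column raised the share of all genes with an unadjusted p under 0.05, to 14.7% against 6.74% for Arntl in thyroid and to 11.2% against 7.47% for the same gene in hypothalamus and pituitary, so calls gained under it are not read as results. Settings with the wider set, with number 30 left out or with the column test were chosen after seeing the data. Depth limits Per1, Per2, Per3, Cry1 and Arntl, which had too few counts to enter the filtered test of treatment in any tissue. Cry2 and Nr1d1 entered it in hypothalamus alone.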
